A study of Saccharomyces cerevisiae with 22 samples.

Results

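The 10 genes described here encode the enzymes of lower glycolysis in budding yeast, Saccharomyces cerevisiae, from triose phosphate to pyruvate. They were taken by name, not by a cut-off on measured values: TPI1, TDH1, TDH2, TDH3, PGK1, GPM1, ENO1, ENO2, CDC19 and PYK2. Earlier results of these data were known when they were chosen. In the table they carry the systematic names YDR050C (TPI1), YJL052W (TDH1), YJR009C (TDH2), YGR192C (TDH3), YCR012W (PGK1), YKL152C (GPM1), YGR254W (ENO1), YHR174W (ENO2), YAL038W (CDC19) and YOR347C (PYK2), and they are 10 of the 6242 genes in a table of 22 two-colour arrays. Each array compared RNA of 1 chemostat sample, labelled with Cy5, with a common reference that pooled RNA from glucose and galactose, labelled with Cy3. A value is the log2 ratio of sample over pool after each array was centred on its median, so 0 is the level of the middle gene on that array. The ratio follows 1 gene across arrays and does not say which of 2 genes has more RNA.

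There were 3 chemostats, each 1 culture. The one called 3AT40mM held 40 mM of 3AT (3-aminotriazole, which competes at the active site of His3, an enzyme of histidine synthesis), and no3AT2 and no3AT held none. Each culture was sampled in glucose after a steady state in galactose. The first 2 labelled hours in glucose of each chemostat are called early glucose, 552 and 574 hours in 3AT40mM, 315 and 328 hours in no3AT2, and 344 and 353 hours in no3AT. Glucose steady state has 1 array in 3AT40mM, 3 in no3AT2 and 2 in no3AT, and galactose steady state has 2, 1 and 2 arrays. Another 5 glucose arrays, 3 of 3AT40mM and 2 of no3AT, lie between early glucose and steady state. The no3AT2 arrays carry polyA RNA and the others total RNA, so inhibitor, culture and, for no3AT2, type of RNA cannot be told apart. The labels give no hour for the switch of sugar, so time since the switch may differ between cultures and was not matched. An array reads a whole culture, in which a change in every cell and a change in the share of some cells cannot be told apart either.

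Lower glycolysis turns each triose phosphate into pyruvate and yields ATP at the steps of phosphoglycerate kinase and pyruvate kinase. In budding yeast its enzymes are among the most abundant proteins, and their genes are activated by the transcription factors Gcr1, Gcr2 and Rap1. Several steps have paralogous genes: TDH1, TDH2 and TDH3 encode glyceraldehyde-3-phosphate dehydrogenase, ENO1 and ENO2 encode enolase, and CDC19 and PYK2 encode pyruvate kinase. ENO2 and CDC19 are known as the glucose-induced forms of their pairs, and PYK2 as a form repressed by glucose. The TDH genes are similar to each other in sequence, as are the enolase genes. Probe sequences were not analysed here, so how far paralogues shared signal was not tested.

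The deposited table lacked 138 to 1587 of 6281 values per array (median 548). Of the 10 genes, 9 had a value on all 22 arrays, and PYK2 lacked one at 328 hours in no3AT2. Some glucose and galactose arrays ran opposite ways across all genes: 10 of 231 array pairs correlated below -0.3, the lowest at -0.45, and each of these joined a galactose with a glucose array. The labels state the dyes, so the direction of the ratio was kept. As a check of the labels, the galactose gene GAL7 changed by -2.54 in early glucose and by -1.57 at glucose steady state on the log2 scale, both relative to galactose (limma adjusted p = 0.0093 and 0.0084, n = 3 chemostats). In the same fits GAL1 changed by -1.70 and -1.18 (adjusted p = 0.0228 and 0.0584, the second not passing). HIS3, which is driven by the GAL promoter in this series, changed by -2.35 and -2.90 (adjusted p = 0.0150 and 0.0033). In 3AT40mM alone the check was weaker: at glucose steady state 1 of these 3 genes was above galactose, with a median change of -0.37. One glucose array stood with the galactose arrays: at 552 hours in 3AT40mM the 10 genes had a median of -0.81, against -0.64 and -0.83 on that culture's galactose arrays. Results that rest on it are given with and without it.

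**Figure D1:**
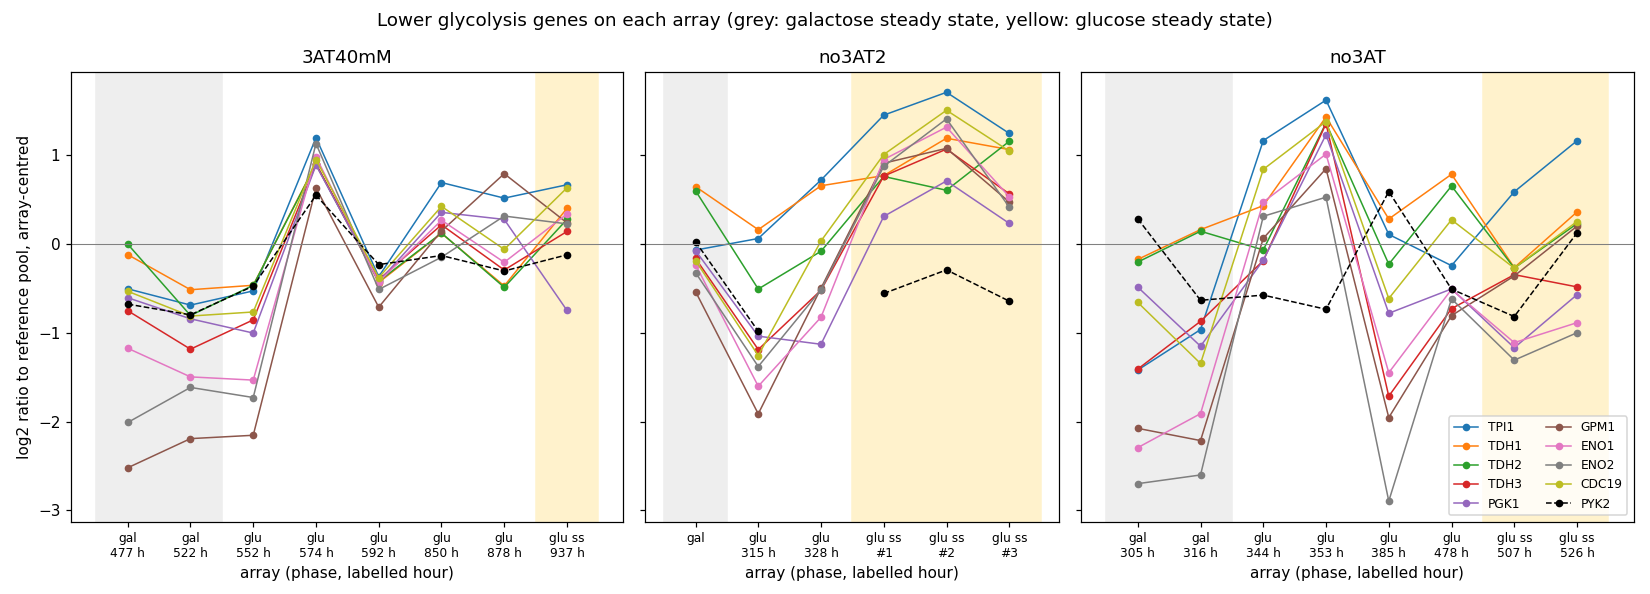
Centred log2 ratio to the reference pool (vertical axis) of the 10 lower glycolysis genes on each array of the 3 chemostats, in order of phase and labelled hour, with galactose steady state in grey and glucose steady state in yellow. Lines join the arrays of 1 gene, PYK2 is dashed, and the 10 genes come closest together at 574 hours (all above 0) and 592 hours (all below 0) in 3AT40mM.

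Array by array, the 10 genes moved in a similar course in 3AT40mM and no3AT and in another in no3AT2. In 3AT40mM their median was -0.64 and -0.83 in galactose, then -0.81 at 552 hours, 0.90 at 574 hours, -0.42 at 592 hours, 0.18 at 850 hours, -0.13 at 878 hours and 0.26 at 937 hours, the steady state. In no3AT it was -1.03 and -1.06 in galactose, then 0.19 at 344 hours, 1.30 at 353 hours, -0.70 at 385 hours and -0.51 at 478 hours, with -0.35 and 0.17 at steady state. In no3AT2 it was -0.12 in galactose, -1.11 at 315 hours and -0.50 at 328 hours, and then 0.83, 1.14 and 0.55 on the 3 steady-state arrays. The highest medians thus stood on an early glucose array in 3AT40mM and no3AT, and on the steady-state arrays in no3AT2, whose early arrays were the lowest of that culture.

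The genes also differed in how tightly they held together on an array. At 574 hours in 3AT40mM all 10 lay above 0 within a range of 0.65, from PYK2 at 0.55 to TPI1 at 1.20. At 592 hours, in the same culture, all 10 lay below 0 within a range of 0.48, from GPM1 at -0.71 to PYK2 at -0.23. The range was 2.99 and 2.77 on the galactose arrays of no3AT and 3.49 at 385 hours, where ENO2 was lowest at -2.90 and PYK2 highest at 0.59. On no3AT at 353 hours 9 genes were above 0, between 0.53 and 1.62, and PYK2 was at -0.73. PYK2 was also the only one of the 10 below 0 on each of the 3 no3AT2 steady-state arrays.

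**Figure D2:**
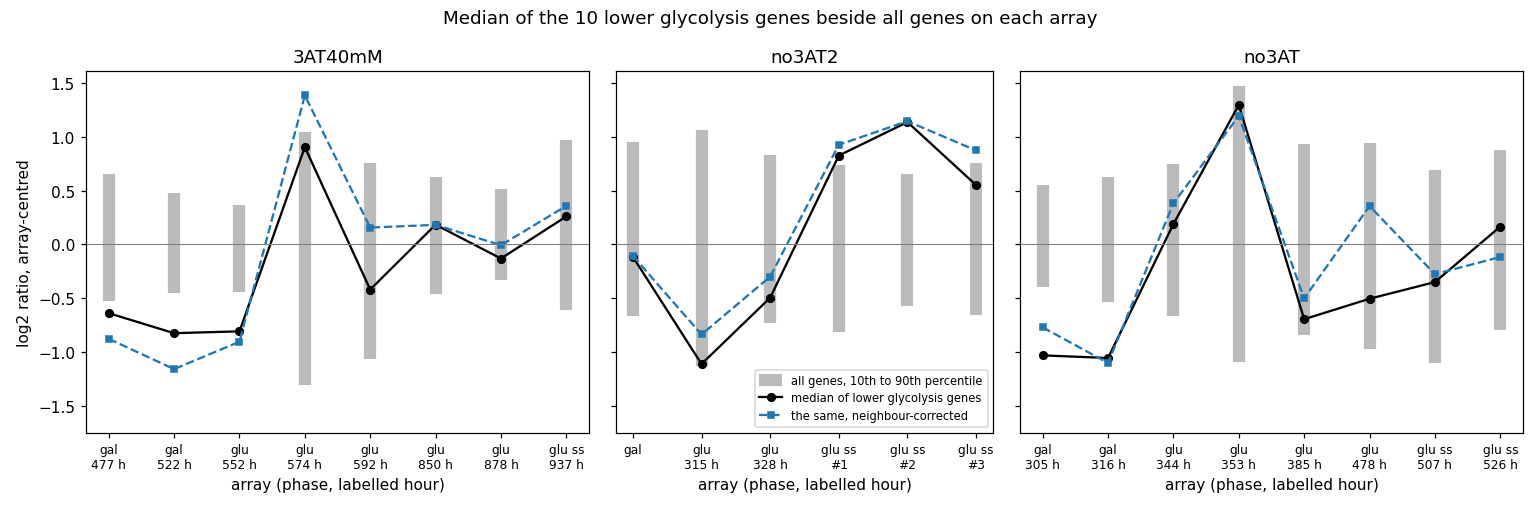
Median of the 10 lower glycolysis genes (black), the same after the median of neighbouring rows was removed from each value (blue), and the 10th to 90th percentile of all genes (grey bars), as centred log2 ratios on each array. The median lies above the bar on 2 of the 3 no3AT2 glucose steady-state arrays and below it on the galactose arrays of 3AT40mM and no3AT.

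Set against all genes of the same array, the median of the 10 was above 63.7% of genes at glucose steady state in 3AT40mM, above 92.5%, 97.2% and 82.6% in no3AT2 and above 30.5% and 60.0% in no3AT. In galactose it was above 6.79% and 2.64% of genes on the 3AT40mM arrays, above 42.4% on the no3AT2 one and above 1.33% and 1.95% on those of no3AT. The 10 thus ranked higher among all genes at glucose steady state than in galactose in every culture. The grey bars of all genes are wide on the early arrays at 574 hours (-1.31 to 1.04) and 353 hours (-1.09 to 1.47), so a gene could lie far from 0 there without standing far from other genes.

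The adapted cultures were compared first, glucose steady state with that in galactose, to see what differed after adaptation in every culture. TPI1, GPM1 and ENO2 rose, 3 of the 10 genes, beside 4.54% of the 4783 genes tested (217 genes), and none of the 10 fell, beside 13.0% (623 genes). These calls come from limma on the mean of each chemostat and phase, with the chemostat as block and n = 3 chemostats, and p-values were adjusted by Benjamini-Hochberg over all genes tested. The median change of the 10 was 1.08 on the log2 scale, against 0.02 over all genes tested, and 9 of the 10 changes were above 0, against 51.1% of all genes. Without the 937-hour array of 3AT40mM only the call of TPI1 was left, and without the 315-hour array of no3AT2 5 genes passed, beside 8.56% of all genes that rose in that fit. On single arrays TPI1 and GPM1 were higher at glucose steady state than in galactose without overlap, as were 6.17% of the 3793 genes with a value on each of these 11 arrays, and the other 8 overlapped. None of the 10 was lower without overlap, as 6.20% of genes were.

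TPI1, the triose phosphate isomerase that passes dihydroxyacetone phosphate into lower glycolysis, was at 0.67 at glucose steady state against -0.50 and -0.69 in galactose in 3AT40mM. In no3AT2 it was at 1.45, 1.71 and 1.25 against -0.07, and in no3AT at 0.59 and 1.17 against -1.42 and -0.96. Every one of the 6 steady-state glucose arrays lay above every one of the 5 galactose arrays. The change was 1.62 (SE 0.36, adjusted p = 0.0088, 95% interval 0.85 to 2.39, 3.08-fold), and it was positive in all 3 chemostats, at 1.26 in 3AT40mM, 1.54 in no3AT2 and 2.07 in no3AT. It passed in 29 of 32 alternative settings, the exceptions being the neighbour-corrected values, with and without the 552-hour array, and the fit without chemostat 3AT40mM (1.80, adjusted p = 0.083). Neighbour correction takes from each value the median of rows near it in the deposited order.

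The 3 TDH genes encode glyceraldehyde-3-phosphate dehydrogenase, which makes 1,3-bisphosphoglycerate and NADH, and none of them passed. TDH3, known in yeast as the main form, was at 0.14 in glucose against -0.75 and -1.18 in galactose in 3AT40mM, at 0.77, 1.07 and 0.57 against -0.16 in no3AT2, and at -0.34 and -0.48 against -1.41 and -0.87 in no3AT. It was higher in glucose in each culture, but the groups overlapped across cultures. TDH3 averaged 0.29 ± 0.62 on the 6 steady-state glucose arrays and -0.87 ± 0.48 on the 5 galactose arrays (SD), with a change of 0.93 (SE 0.41, adjusted p = 0.12). TDH1 changed by 0.38 and TDH2 by 0.31 (SE 0.31 and 0.35), and both had a positive sign in all 3 chemostats. For TDH2 in no3AT the size was 0.01. The 95% intervals of these 2 genes reach 1.05, so the arrays leave room for a sizeable rise. After neighbour correction TDH1 stood at 1.13 (adjusted p = 0.12) and TDH2 at 0.94 (adjusted p = 0.12), without passing.

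PGK1, the phosphoglycerate kinase that makes the first ATP of the pathway, did not pass, with a change of 0.14 (SE 0.43, 95% interval -0.78 to 1.06) and of 0.63 after neighbour correction (adjusted p = 0.51). It was the only gene besides PYK2 whose change had mixed signs, at -0.02 in 3AT40mM, 0.49 in no3AT2 and -0.05 in no3AT. On the 3AT40mM steady-state array PGK1 was the lowest of the 10, at -0.75, while the other 9 lay between -0.12 and 0.67.

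GPM1, the phosphoglycerate mutase that moves the phosphate from position 3 to position 2, had the largest change of the 10. It stood at 0.24 in glucose against -2.52 and -2.19 in galactose in 3AT40mM, at 0.91, 1.08 and 0.48 against -0.53 in no3AT2, and at -0.36 and 0.20 against -2.08 and -2.21 in no3AT. The groups did not overlap, although the lowest glucose array, no3AT at 507 hours, was close to the no3AT2 galactose array. GPM1 rose by 2.01 (SE 0.47, adjusted p = 0.0108, 95% interval 1.01 to 3.00, 4.02-fold), with 2.60 in 3AT40mM, 1.36 in no3AT2 and 2.07 in no3AT. Of the genes tested, 99.9% had a smaller change. Without the single 3AT40mM steady-state array the value was 1.82 and no longer passed (adjusted p = 0.086), nor did it pass without chemostat 3AT40mM (1.71, adjusted p = 0.21) or after neighbour correction (1.67, adjusted p = 0.13).

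The enolases, which turn 2-phosphoglycerate into phosphoenolpyruvate, moved the same way. ENO2 was at 0.23 in glucose against -2.01 and -1.62 in galactose in 3AT40mM, at 0.88, 1.41 and 0.42 against -0.32 in no3AT2, and at -1.31 and -0.999 against -2.70 and -2.60 in no3AT. Within each chemostat every glucose steady-state array was above every galactose array, but across chemostats the groups overlapped, since ENO2 in no3AT remained lower in glucose than in the galactose culture of no3AT2. ENO2 rose by 1.59 (SE 0.52, adjusted p = 0.0489, 95% interval 0.48 to 2.70), close to the threshold, and after neighbour correction the change was 2.40 (adjusted p = 0.068). It passed in 17 of 32 alternatives, and leaving out any one of 9 arrays ended the call (316 and 344 hours in no3AT, 477, 552, 574 and 937 hours in 3AT40mM, and 328 hours and steady-state arrays 1 and 2 in no3AT2), with values of 1.41 to 1.60 (adjusted p = 0.052 to 0.26). ENO1, the form known as constitutive, changed by 1.32 (SE 0.55, adjusted p = 0.11), with 1.67 in 3AT40mM, 1.17 in no3AT2 and 1.10 in no3AT.

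CDC19, the pyruvate kinase that carries the glycolytic flux to pyruvate in glucose, was at 0.63 in glucose against -0.53 and -0.81 in galactose in 3AT40mM, at 1.01, 1.51 and 1.05 against -0.18 in no3AT2, and at -0.27 and 0.26 against -0.66 and -1.35 in no3AT. The 507-hour array of no3AT was the only glucose one within the range of the galactose arrays. CDC19 averaged 0.70 ± 0.64 at glucose steady state and -0.71 ± 0.43 in galactose (SD, 6 and 5 arrays). Its change of 1.22 (SE 0.43, adjusted p = 0.062) was similar in the 3 chemostats, at 1.31, 1.37 and 0.99 in 3AT40mM, no3AT2 and no3AT, and it passed in 10 of 32 alternatives, among them neighbour correction (2.17, adjusted p = 0.0486). PYK2, its paralogue, was at -0.12 in glucose against -0.68 and -0.80 in galactose in 3AT40mM, at -0.56, -0.29 and -0.64 against 0.03 in no3AT2, and at -0.82 and 0.13 against 0.29 and -0.63 in no3AT. The cultures thus went different ways, and the change was -0.03 (SE 0.33, 95% interval -0.72 to 0.67), with 0.62 in 3AT40mM, -0.52 in no3AT2 and -0.17 in no3AT. With quantile normalization its sign turned, to 0.11.

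**Figure D3:**
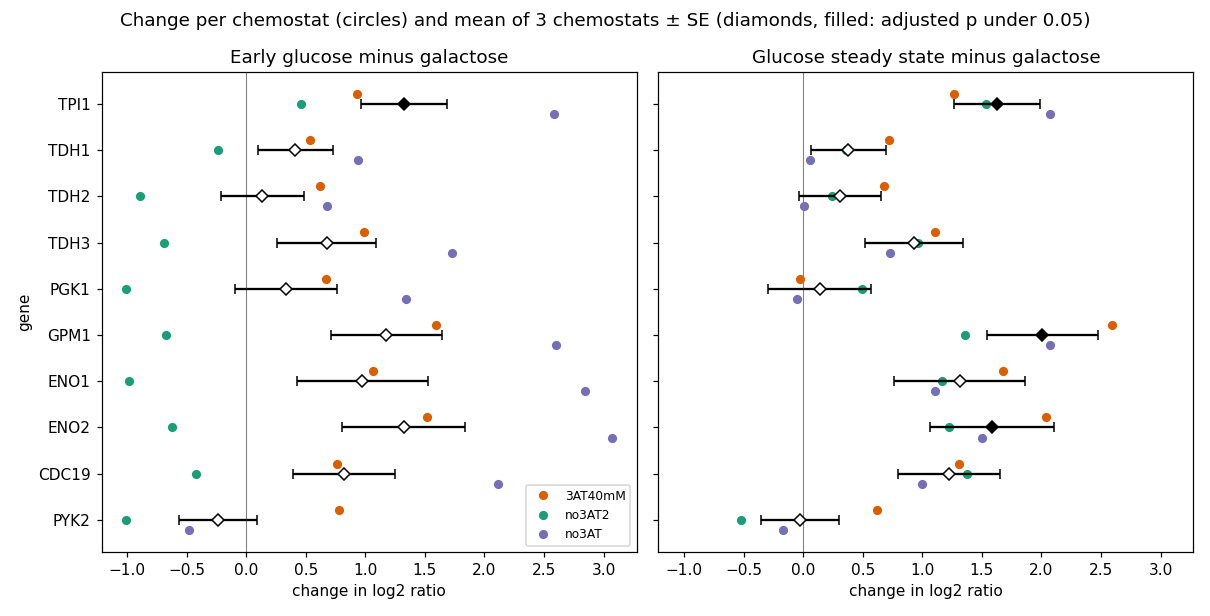
Change in log2 ratio from galactose steady state, in early glucose (left) and at glucose steady state (right), for each of the 10 genes, with circles for each chemostat and diamonds for the mean of 3 chemostats ± SE from limma. Filled diamonds mark adjusted p under 0.05, which only TPI1 reached on the left and TPI1, GPM1 and ENO2 on the right.

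Early glucose was compared with the same galactose arrays to see what followed the switch of sugar in every culture. Because both comparisons share the galactose arrays, their values are set side by side only. TPI1 rose, as the only one of the 10, beside 0.251% of the 4783 genes (12 genes), and none fell, beside 6.86% (328 genes). The change of TPI1 was 1.33 (SE 0.36, adjusted p = 0.0389, 95% interval 0.56 to 2.10, 2.51-fold), with 0.93 in 3AT40mM, 0.46 in no3AT2 and 2.59 in no3AT. It was at -0.53 and 1.20 in early glucose in 3AT40mM, at 0.06 and 0.72 in no3AT2 and at 1.17 and 1.62 in no3AT. The 552-hour array alone lay within the range of the galactose arrays, and without it the change was 1.61 (adjusted p = 0.022). The call is fragile all the same: it passed in 19 of 32 alternatives and was lost without any one of 7 other arrays (316, 344 and 507 hours in no3AT, 574 and 937 hours in 3AT40mM, and galactose and 328 hours in no3AT2), where the value was 1.04 to 1.56 (adjusted p = 0.054 to 0.33), and in the fit with no chemostat block (adjusted p = 0.081).

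The other 9 genes did not pass in early glucose, and the chemostats went opposite ways. ENO2 stood at 1.32 (SE 0.52, adjusted p = 0.14), GPM1 at 1.18, ENO1 at 0.97, CDC19 at 0.82, TDH3 at 0.67, TDH1 at 0.41, PGK1 at 0.33, TDH2 at 0.13 and PYK2 at -0.24. Neighbour correction brought CDC19 to 1.46, TDH1 to 0.92, TDH2 to 0.87, PGK1 to 0.81, TDH3 to 0.26 and PYK2 to -0.08, and none of the 10 passed with it. In no3AT 9 of the 10 genes were above galactose and in 3AT40mM 10 of 10, while in no3AT2 TPI1 was the 1 gene above and the other 9 were below, between -0.24 and -1.01. Of all genes tested, 49.9% were above galactose in no3AT, 48.8% in 3AT40mM and 48.3% in no3AT2. The count in 3AT40mM rests on the 574-hour array, with 10 of 10 above galactose. At 552 hours it was 5 of 10, with a median change of 0.0033. Without no3AT2 the changes of 6 genes passed, TPI1, TDH3, GPM1, ENO1, ENO2 and CDC19, beside 0.646% of all genes that rose in that fit. Without the 315-hour array of no3AT2 those of 3 passed, TPI1, GPM1 (1.41) and ENO2 (1.46), beside 0.977%. Over the 10 genes the median change was 0.75, against 0.02 over all genes tested, and none of the 9 genes with values on every array had all early arrays above or below the galactose ones (0.165% and 0.220% of 3635 genes did).

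Against early glucose, no gene of the 10 passed at glucose steady state, and none of the 4783 genes tested did (limma, adjusted p under 0.05). At an unadjusted p under 0.05 there were 344 genes and none of the 10. GPM1 was at 0.83, CDC19 at 0.41, ENO1 at 0.34, TPI1 at 0.30, ENO2 at 0.27, TDH3 at 0.26, PYK2 at 0.21, TDH2 at 0.18, TDH1 at -0.03 and PGK1 at -0.19, with a median of 0.26 against -0.03 over all genes. The chemostats again differed in sign: the median of the 10 was 0.26 in 3AT40mM, 1.58 in no3AT2 and -0.94 in no3AT.

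Changes within 1 culture were tested against the spread between arrays of the same culture and phase, pooled over all cultures. This spread may be technical. In no3AT ENO2 was higher in early glucose than in galactose by 3.07, ENO1 by 2.85 and TPI1 by 2.59, and each had an adjusted p of 0.058. No gene of the 10 passed in any of the 9 comparisons within a chemostat. In no3AT early glucose no gene of the 4783 passed (541 had an unadjusted p under 0.05, among them 7 of the 10), and in no3AT2 early glucose 0.523% fell. The shares of all genes at steady state against galactose were 0.0209% up and 1.36% down in no3AT2 and 0.0836% down in no3AT, and against early glucose 0.627% up and 0.0209% down in no3AT2 and 1.02% down in no3AT. In the other comparisons within a chemostat no gene passed. The 2 early arrays of 3AT40mM, at 552 and 574 hours, are far apart, with TPI1 at -0.53 and 1.20 and ENO2 at -1.73 and 1.13, and this gap enters the spread used for every culture. Without the 552-hour array 5 of the 10 passed in early glucose in no3AT, TPI1, GPM1, ENO1, ENO2 and CDC19, beside 0.609% of 4759 genes that rose, and the count was 5 as well without the 574-hour array (beside 0.607%) or the 344-hour array of no3AT (beside 2.97%). In 3AT40mM, where 574 hours is then the single early array, 7 passed, from PGK1 at 1.61 to GPM1 at 2.99, beside 10.3%, whereas without the 574-hour array none did. For glucose steady state against galactose, 2 passed in 3AT40mM (GPM1 and ENO2), 1 in no3AT2 (TPI1) and 3 in no3AT (TPI1, GPM1 and ENO2), again without that array, beside 1.24%, 0.483% and 0.336% of genes that rose and, in no3AT, 3.99% that fell. Against early glucose, 6 passed at steady state in no3AT2, all of them up (beside 3.30%), and 2 in no3AT, ENO1 and ENO2, both down (beside 2.50%). The 574-hour array left out instead gave the same counts in these steady-state comparisons.

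The difference between cultures was tested directly. For early glucose minus galactose, no3AT2 minus no3AT, all 10 genes were below 0, with a median of -2.39 against -0.04 over all genes, and none passed, beside 0.105% of genes that were lower. ENO1 had -3.83 (SE 0.90, adjusted p = 0.077) and ENO2 had -3.70 (adjusted p = 0.12). Without the 552-hour array ENO1, ENO2 and GPM1 passed (adjusted p = 0.0040, 0.0052 and 0.0203), beside 1.30% of genes that were lower, and the same count came without the 574-hour array, beside 1.32%. For 3AT40mM minus no3AT2 all 10 genes were above 0 (median 1.68, none passed, beside 0.0418%), and without the 552-hour array 5 passed, beside 4.16%, whereas without the 574-hour array none did. For 3AT40mM minus no3AT none passed, with or without that array, and the median was -0.87 against -0.09 over all genes. For glucose steady state minus galactose no difference between cultures passed for any of the 10, and the medians were 0.54 for 3AT40mM minus no3AT, 0.40 for 3AT40mM minus no3AT2 and 0.15 for no3AT2 minus no3AT.

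The levels of 3AT40mM and no3AT were also compared within a phase. Glucose steady state has 1 array in 3AT40mM, at 937 hours. There 9 of the 10 genes were higher in 3AT40mM (median difference 0.34, against 0.13 over all genes), beside 59.9% of all genes. In galactose 6 of 10 were higher (median 0.13, against 0.04), near the share of all genes, 53.6%. None passed. The widest interval at steady state was that of GPM1, -1.30 to 1.94, so these arrays do not show the 2 cultures to be alike.

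Paralogues were compared within arrays, which removes what the paralogues share. For each pair the log2 ratio of one gene minus that of the other was taken on each array, and its change between the steady states was tested by exact permutation of arrays within chemostats (two-sided, 72 arrangements, smallest possible p = 0.0139, adjusted over 5 pairs). The permutation exchanges arrays, and arrays of 1 culture are no independent cultures, so its p-values do not measure the spread between cultures. PYK2 fell relative to CDC19 by 1.25 (exact p = 0.0139, adjusted p = 0.035). Over the 3 chemostats CDC19 itself changed by 1.22 and PYK2 by -0.03, so most of this difference lies in CDC19. On the arrays PYK2 minus CDC19 was -0.76 in glucose against -0.14 and 0.01 in galactose in 3AT40mM, -1.57, -1.80 and -1.69 against 0.21 in no3AT2, and -0.55 and -0.13 against 0.94 and 0.71 in no3AT. Every steady-state glucose array but the one at 526 hours in no3AT lay below all galactose arrays, and the change was -0.69 in 3AT40mM, -1.90 in no3AT2 and -1.16 in no3AT. After neighbour correction it was -2.32 (adjusted p = 0.035).

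TDH3 rose relative to TDH1 by 0.55 (exact p = 0.0139, adjusted p = 0.035) and relative to TDH2 by 0.62 (exact p = 0.0278, adjusted p = 0.046). The TDH3 minus TDH2 call was lost in 9 of 11 fits that each left out 1 array (adjusted p = 0.062 to 0.19), all but those without the 526-hour array of no3AT and without steady-state array 3 of no3AT2, with changes of 0.52 to 0.72. Leaving out 1 array also leaves fewer arrangements, which by itself can raise p. TDH3 minus TDH1 was higher at steady state in glucose than in galactose by 0.39 in 3AT40mM, 0.60 in no3AT2 and 0.67 in no3AT, and TDH3 minus TDH2 by 0.43, 0.72 and 0.72. TDH2 minus TDH1 did not pass, with a change of -0.07 (exact p = 0.74). The TDH3 result does not hold under another processing: once the median of neighbouring rows was removed, both differences turned, to -0.24 and -0.04 (adjusted p = 0.51 and 0.90). ENO2 changed relative to ENO1 by 0.27 (exact p = 0.15, adjusted p = 0.19) as deposited and by 1.12 after neighbour correction (adjusted p = 0.035), with 0.37 in 3AT40mM, 0.06 in no3AT2 and 0.39 in no3AT as deposited.

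**Figure D4:**
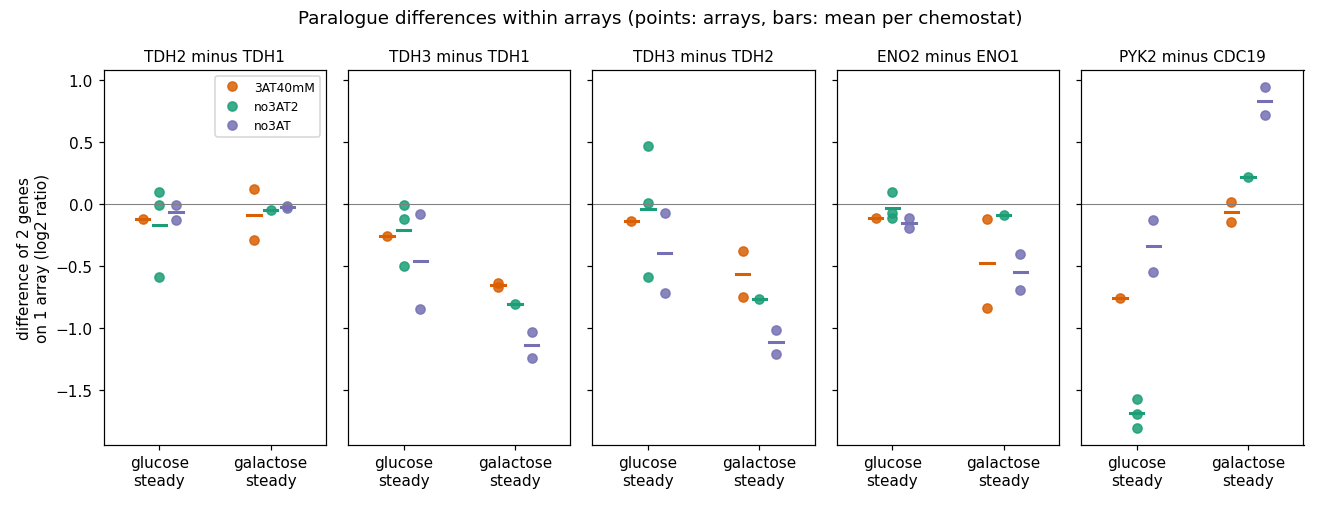
Difference between the log2 ratios of 2 paralogues on the same array (vertical axis), for 5 pairs, at glucose steady state (left in each panel, 6 arrays) and galactose steady state (right, 5 arrays), coloured by chemostat with bars for chemostat means. PYK2 minus CDC19 is lower in glucose than in galactose in each chemostat, and TDH3 minus TDH1 and TDH3 minus TDH2 are higher, on values before neighbour correction.

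Genes next to this stretch of the pathway were read from lists of its neighbours. At glucose steady state against galactose 4.54% of the 4783 genes tested rose (217 genes), and 13.0% fell. The count of rising genes was 7 after neighbour correction and 1 in the fit without 3AT40mM. How the calls on these and the following lists held in such settings is not given here. Upper glycolysis, from glucose to fructose bisphosphate cleavage, had 0 of 7 genes past the threshold at glucose steady state against galactose, with FBA1, the aldolase that supplies the triose phosphates, at 1.31 (adjusted p = 0.065) and HXK2, a hexokinase, at -0.63. Its median was 0.38, beside 1.08 for lower glycolysis. In fermentation 1 of 7 measured genes rose, the pyruvate decarboxylase gene PDC5 at 1.14, and the median was 0.81. In the branch to glycerol, which draws on dihydroxyacetone phosphate, 2 of 4 rose, GPD2 at 1.27 and GPP2 at 0.93 (limma adjusted p = 0.0145 and 0.0476, the second close to the threshold). PCK1, PYC1 and PYC2, for phosphoenolpyruvate carboxykinase and pyruvate carboxylase, did not pass (0.00, -0.22 and -0.63).

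Of the regulators, GCR1 rose by 0.98 (SE 0.31, adjusted p = 0.045), close to the threshold, while RAP1 stood at 0.75 and GCR2 at -0.06 without passing. The enolase-like genes ERR2 and ERR3, whose sequences resemble ENO1 and ENO2, rose by 1.01 and 1.31, and ERR1 stood at 0.85 (adjusted p = 0.066). Whether they share signal with the enolases was not tested. In early glucose against galactose PDC5 (1.33) and ERR3 (1.47) were the genes of these lists that rose, with PFK1, a subunit of phosphofructokinase, at 1.06 (adjusted p = 0.091), and no other member of the lists passed apart from the galactose and histidine genes used to check the labels.

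Closeness was measured as the root mean square difference between a gene and the median of the 10 over at least 18 arrays. Among 5199 genes this measure had a median of 0.91. It is not scaled, so a larger swing in the same direction also counts as distance. TDH3 (0.30) and CDC19 (0.32) were the closest of all genes, which is in part built in because they belong to the 10. Outside the 10 the closest were TAL1, a transaldolase of the pentose phosphate pathway, at 0.36, FBA1 at 0.40, PGI1, the glucose-6-phosphate isomerase, at 0.40, YDR250C at 0.42 and PRC1, the vacuolar carboxypeptidase Y, at 0.42. Among the 10, ENO2 (0.87), PYK2 (0.83) and GPM1 (0.78) were the farthest from their own median, at ranks 2166, 1625 and 1058. After neighbour correction these ranks changed: TDH3 went to rank 44, CDC19 to 549, TAL1 to 16, FBA1 to 57, YDR250C to 58 and PRC1 to 572, while PGI1 stood at 4 and PGK1 at 9.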

How the data were processed

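The deposited table holds 1 column per array and 6281 rows. Its values are signed and lie around 0. The authors' deposited numbers were read as log2 ratios, sample over pool. The log base is not stated, and with another base all sizes would scale. Hot phenol extraction and the dyes are given per the labels, while scanning, background correction, normalization, probes and build were not given in the sources read. Depth is unknown, and the number of arrays limits the precision.

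Row names matched the R64 assembly's gene table for 5763 rows (57 by a second name, 518 unmatched), and rows of 1 gene were averaged, leaving 6242 genes. Array medians were -0.15 to 0.07, and each array was centred on its median. Genes with values on at least 80% of arrays and at least 1 in every chemostat at every phase (9 sets) were tested (4783). limma 3.58.1 in R 4.3.3 fitted the 9 means with the chemostat as block (4 residual and 10.4 prior degrees of freedom), and 17 arrays for changes within and differences between chemostats (8 and 11.4), and an array alone in its set borrows the spread of the rest. Tests are two-sided, with a threshold of 0.05 after Benjamini-Hochberg adjustment. Arrays of 1 culture are no independent cultures. The p-values within a chemostat therefore measure only the spread between arrays of the same culture and phase, pooled over all cultures. The fits were tested on simulated data.

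Members and gene lists were chosen with earlier results of these data known. All 10 genes are named in each comparison over 3 chemostats, and the 5 closest genes outside them. Neighbour correction subtracted, per array, the median of 10 rows before and 10 after a row, counting every second row of the table. Alternatives were other scalings, filters, moderation, definitions of early glucose, no block, and leaving out each chemostat and array. Neighbour correction without the 552-hour array was added after the data were seen.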

Additional observations from a re-analysis of the deposited data

Results flagged for a closer look

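The 5 glucose arrays between early glucose and steady state entered no test, and on each the median of the 10 lower glycolysis genes lay above every galactose array of the same culture. In 3AT40mM it was -0.42, 0.18 and -0.13 at 592, 850 and 878 hours, against -0.64 and -0.83 in galactose. In no3AT the values at 385 and 478 hours were -0.70 and -0.51, set against -1.03 and -1.06 in galactose. The array at 592 hours had the lowest correlation of all pairs across genes (-0.45, with the no3AT2 galactose array), and on it the 9 genes other than PYK2 lay within 0.34 of each other. Neighbour correction moved its median to 0.16, and that at 478 hours to 0.36. Single genes were examined for outlying values among the glucose arrays before steady state, 4 in no3AT and 5 in 3AT40mM. None was flagged in these 20 sets of 1 gene and 1 culture. Steady-state arrays and the no3AT2 culture were not examined in this way.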

How the results depend on the processing

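Counts below are of the 10 genes past the threshold, then of all genes that rose, and sizes are log2 changes. In early glucose against galactose (1 and 12), neighbour correction gave 0 and 0, also without the 552-hour array. So did the fit with no chemostat block, only the lowest hour as early, and the fit without 3AT40mM. Without no3AT the counts were 0 and 1, without no3AT2 6 and 36. Quantile normalization raised the second count to 20, and all glucose arrays before steady state as early to 110. Leaving out single arrays gave 0 to 3 and 0 to 80, the last without the 552-hour array. At glucose steady state against galactose (3 and 217), quantile normalization gave 6 and 495, neighbour correction 1 (CDC19) and 7, or 0 and 0 without the 552-hour array. Arrays as units gave 5 and 259. The fit without 3AT40mM gave 0 and 1, that without no3AT2 5 and 473. The second count was 78 without no3AT, 81 with no block, 31 with only the lowest hour as early and 413 with all glucose arrays as early. Single arrays left out gave 1 to 5 and 14 to 376, the lowest of both without the 937-hour array of 3AT40mM. The cause of these shifts was not tested.

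The changes of single genes turned sign as follows. In early glucose TDH2 stood at -0.40 and TDH1 at -0.065 with only the lowest hour as early, TDH2 at -0.034 with all glucose arrays as early, -0.14 without no3AT and -0.11 without 3AT40mM, and at -0.10 to 0.41 with single arrays left out. PGK1 was at -0.20 with only the lowest hour and -0.17 without no3AT. PYK2 was at 0.15 without no3AT2, at 0.053 with neighbour correction without the 552-hour array, and at -0.41 to 0.079 with single arrays left out. At glucose steady state against galactose PYK2 turned to 0.11 with quantile normalization, 0.034 with arrays as units, 0.046 without no3AT and 0.22 without no3AT2, and lay at -0.18 to 0.29 with single arrays left out, and PGK1 was at -0.038 without no3AT2. Against early glucose PGK1 turned to 0.34 with only the lowest hour, 0.41 without no3AT and 0.054 without 3AT40mM (-0.51 to 0.12 with single arrays left out), and GPM1 to -0.041 with neighbour correction without the 552-hour array. In the same comparison TDH1 turned to 0.16 with quantile normalization, 0.21 with neighbour correction, 0.44 with only the lowest hour, 0.13 with all glucose arrays as early and 0.39 without no3AT. PYK2 was at -0.066 with neighbour correction. Without no3AT2 TPI1 was at -0.092, TDH2 at -0.30, TDH3 at -0.44, ENO1 at -0.56, ENO2 at -0.52 and CDC19 at -0.29. With neighbour correction without the 552-hour array TPI1 was at -0.12, TDH2 at -0.25 and ENO2 at -0.031. Single arrays left out gave -0.26 to 0.19 for TDH1, -0.063 to 0.41 for TDH2, -0.033 to 0.55 for TDH3, -0.079 to 0.76 for ENO1 and -0.21 to 0.74 for ENO2.

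Within chemostats (0 of the 10 each), with the share of all genes that rose in the same fit in brackets, quantile normalization gave 4 in no3AT early glucose (0.167%) and, at steady state against galactose, 1 in 3AT40mM (0.335%) and 1 in no3AT (0.0209%). Requiring a value on every array gave 3 in no3AT early glucose (0.122%) and 1 in no3AT2 at steady state against early glucose (1.19%), where neighbour correction gave 2 (1.09%). A fit of steady-state arrays only gave 4 in 3AT40mM (7.71%), 3 in no3AT2 (1.28%) and 4 in no3AT (1.23%). With single arrays left out, early glucose gave 0 to 7 in 3AT40mM and 0 to 5 in no3AT. Steady state against galactose gave 0 to 2 in 3AT40mM, 0 to 1 in no3AT2 and 0 to 3 in no3AT, and against early glucose 0 to 6 in no3AT2 and 0 to 2 in no3AT. Differences in the early change gave 0 to 5 for 3AT40mM minus no3AT2 and 0 to 3 for no3AT2 minus no3AT.

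For the paralogues, neighbour correction turned TDH3 minus TDH1 to -0.24 and TDH3 minus TDH2 to -0.044, and brought ENO2 minus ENO1 to 1.12, past the threshold. Quantile normalization gave 0.71 for TDH3 minus TDH2, no longer past it (adjusted p = 0.069). With single arrays left out the changes were 0.43 to 0.68 for TDH3 minus TDH1, 0.52 to 0.73 for TDH3 minus TDH2, -1.53 to -0.93 for PYK2 minus CDC19 and -0.14 to 0.0016 for TDH2 minus TDH1. Such fits have 18 to 54 arrangements and a smallest p of 0.0185 to 0.0556, so the 7 calls each that PYK2 minus CDC19 and TDH3 minus TDH1 lost at that smallest p say nothing about stability. TDH3 minus TDH2 lost 9 of 11, each above the smallest p, but its p was also above the smallest with all arrays (0.0278 against 0.0139). Fewer arrangements alone can raise it further, so how far these losses show instability was not tested. The log base, the spot intensities and the probes are unknown, and each culture stands for its condition alone.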
